A study of Mus musculus with 8 samples.

Results

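The myeloid C-type lectin receptors described here are 10 genes, *Clec4a1*, *Clec4a2*, *Clec4a3*, *Clec4d*, *Clec4e*, *Clec4n*, *Clec5a*, *Clec7a*, *Clec10a* and *Clec12a*, picked by symbol from the 53819 genes in the deposited count table. All 10 were among the 13722 genes with enough counts to be tested. Bone marrow-derived macrophages (BMDM) were grown from 4 female BALB/cJ mice aged 8 weeks, with the marrow of each animal cultured on its own. The labels name no genetic change in any group. Marrow cells were differentiated for 5 days with 25 ng/mL macrophage colony-stimulating factor (M-CSF), given at plating and again after 2 days, and then received either 2.5 µM bilirubin, a breakdown product of heme, or its DMSO vehicle for 48 h. Polyadenylated RNA of the 4 vehicle and 4 bilirubin cultures was sequenced, 1 culture of each kind per mouse. The comparison asked which receptor mRNAs differed between the bilirubin and the vehicle culture of the same mouse. All libraries are of 1 strain, 1 sex, 1 dose and 1 time.

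C-type lectin receptors are surface proteins of macrophages and other myeloid cells that bind sugars and lipids of fungi and bacteria, and molecules set free by damaged cells. Activating members pass the signal to the kinase Syk, either through an ITAM motif in the adaptors FcRγ (*Fcer1g*) and DAP12 (*Tyrobp*) or through a half-ITAM of their own, and from there to the CARD9, BCL10 and MALT1 complex, which activates NF-κB. Inhibitory members carry an ITIM motif that recruits phosphatases such as SHP-1 (*Ptpn6*). Most of the receptor genes described here lie on chromosome 6, in the Dectin-2 cluster, which holds their *Clec4* members, and in the Dectin-1 cluster with *Clec7a* and *Clec12a*.

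Libraries held 34142781 to 47071714 estimated counts on genes, the fewest in the bilirubin culture of mouse 1, and mitochondrial genes took 3.05% to 3.59% of them. All 12 macrophage markers were tested, of which 4 rose and 1 fell with bilirubin, and their summed level was 24728 to 25007 CPM in vehicle and 29017 to 31145 CPM in bilirubin cultures. CPM are counts scaled to a common library total by the TMM method, which corrects for differences in composition between libraries. Of the 14 neutrophil markers, *Ly6g*, *Camp* and *Retnlg* had 3 counts or fewer in every library and the summed level of the list was 167 to 192 CPM in vehicle and 192 to 221 CPM in bilirubin cultures, most of it *Mmp8*, while *S100a8* rose by 1.07 on the log2 scale. Of the 7 monocyte markers, 2 had enough counts to be tested. *Vcan* rose by 2.26 on the log2 scale, from a mean of 0.991 to 4.68 CPM. *Ccr2*, the most abundant of the list in vehicle cultures, did not rise, with means of 3.07 CPM in vehicle and 2.89 CPM in bilirubin cultures. The monocyte list summed to 3.85 to 4.68 CPM in vehicle and 6.28 to 9.27 CPM in bilirubin cultures. None of the 10 dendritic cell markers had enough counts to be tested, and 6 of them had 3 counts or fewer in every library, while the list summed to 0.210 to 0.390 CPM in vehicle and 0.415 to 0.821 CPM in bilirubin cultures, with *Zbtb46* the most abundant member and at most 22 counts of it in any library. The part of these marker shifts in the receptor values was not tested. In RNA from whole cultures, a change in the number of cells of a type and a change in RNA per cell cannot be told apart.

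Bilirubin treatment increased the mRNA of 4 of the 10 receptors, *Clec4e*, *Clec4a1*, *Clec4a2* and *Clec12a*, and decreased none. Among all tested genes 616 rose, which is 4.49%, and 417 fell, which is 3.04%, so that 7.53% changed. The receptors were chosen with earlier results of these data known, so a gap from these shares is not a test of the group. Calls were made by edgeR's quasi-likelihood test, in a model that holds both the mouse and the treatment, where the Benjamini-Hochberg adjusted p over all tested genes was under 0.05. The median log2 fold change of the 10 receptors was 0.32, beside -0.00 for all tested genes, and 8 of the receptors had an unadjusted p under 0.05, as did 20.8% of all tested genes. The receptors' median changes by mouse were 0.12, 0.33, 0.44 and 0.46 in mice 1 to 4. The groups did not overlap, with all bilirubin cultures above all vehicle cultures, for *Clec4e*, *Clec4a1*, *Clec4a2* and *Clec4a3*, a pattern that 5.93% of all tested genes had, while 4.69% had the reverse.

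**Figure D1:**
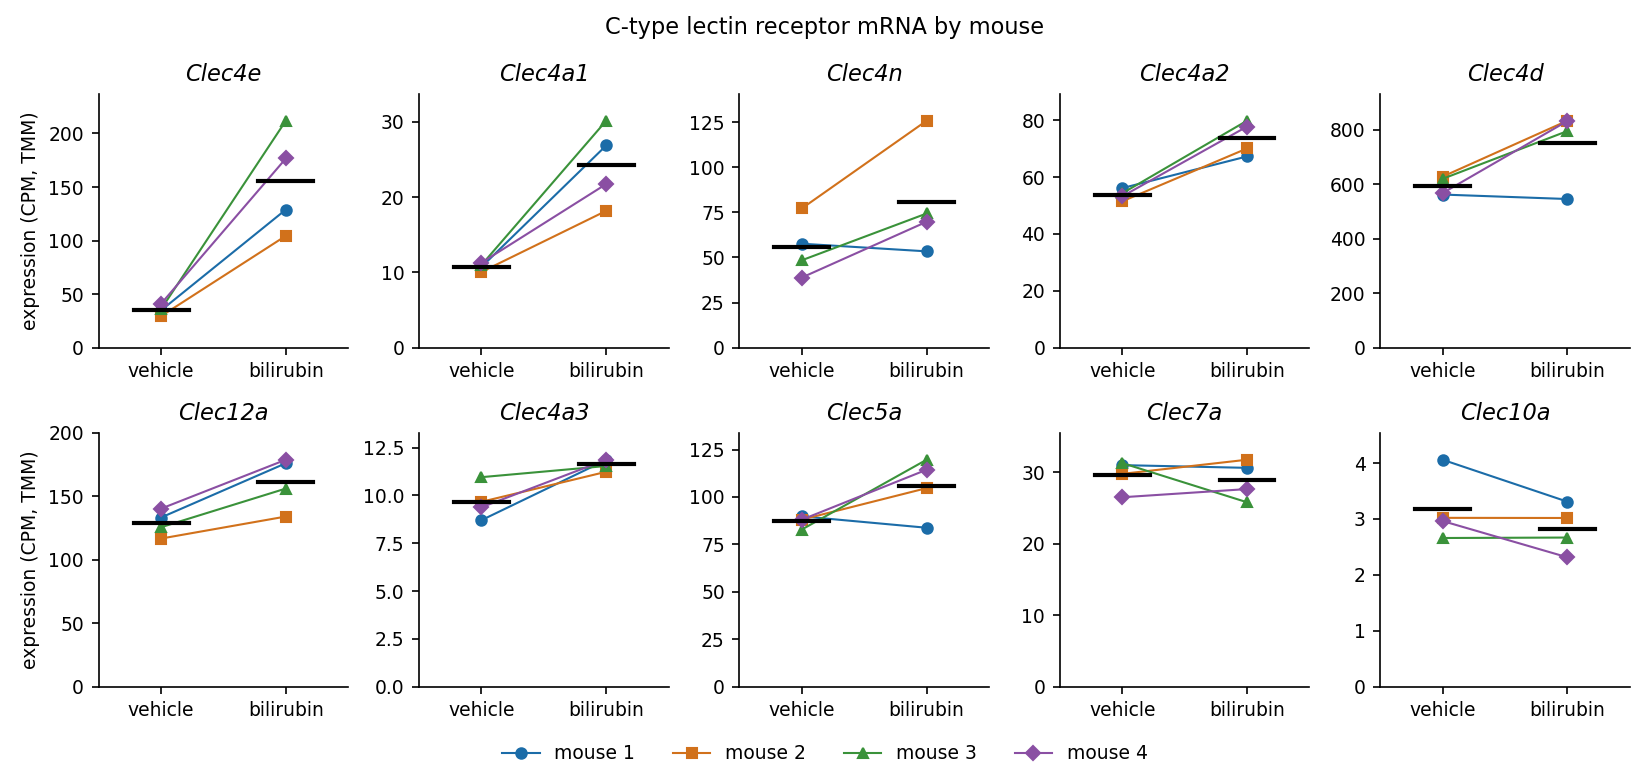
Expression of each receptor (CPM, TMM-scaled, linear axes from 0) in the vehicle and bilirubin cultures, with a line for each of the 4 mice and a black bar for the group mean. *Clec4e* rose from 35.3 to 155 CPM on average, while *Clec4d*, *Clec4n* and *Clec5a* of mouse 1 are slightly lower with bilirubin.

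*Clec4e* encodes Mincle, an activating receptor for mycobacterial cord factor and for a nuclear protein released by dying cells, which signals through FcRγ. In mice 1 to 4, *Clec4e* stood at 34.8, 29.5, 35.9 and 40.99 CPM in the vehicle cultures and at 129, 104.4, 212 and 177 CPM in the bilirubin cultures. Every bilirubin culture was above every vehicle culture, and mouse 3 was the highest of the treated cultures. The mean rose from 35.3 ± 4.73 to 155 ± 48.1 CPM (SD, n = 4), a log2 fold change of 2.10 (SE 0.11, edgeR adjusted p = 3.51e-05), or 4.29-fold. The call passed under all 12 other analysis settings, with adjusted p between 3.61e-50 and 7.00e-04.

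*Clec4a1* is a paralog of the inhibitory receptor DCIR in the same cluster. The vehicle cultures of mice 1 to 4 held 10.7, 10.1, 10.98 and 11.3 CPM of *Clec4a1* and their bilirubin cultures 26.9, 18.2, 30.2 and 21.7 CPM. The vehicle cultures lay close together and all treated cultures were above them, with mice 1 and 3 higher than mice 2 and 4. The mean rose from 10.8 ± 0.519 to 24.2 ± 5.32 CPM, a log2 fold change of 1.15 (SE 0.10, edgeR adjusted p = 4.61e-04), or 2.22-fold. This call also passed under all 12 settings, with adjusted p between 3.60e-22 and 0.00685.

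*Clec4a2* encodes DCIR itself, which carries an ITIM. *Clec4a2* measured 56.1, 51.4, 54.3 and 53.2 CPM in vehicle and 67.2, 70.04, 79.8 and 77.7 CPM in bilirubin cultures of mice 1 to 4. The groups were apart, and the treated cultures of mice 3 and 4 were the highest. The mean rose from 53.7 ± 1.95 to 73.7 ± 6.02 CPM, with a log2 fold change of 0.45 (SE 0.05, edgeR adjusted p = 0.00185), and the call passed under all 12 settings.

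*Clec12a* encodes MICL, an ITIM-bearing receptor for uric acid crystals. Levels of *Clec12a* in mice 1 to 4 were 133, 117, 126 and 140 CPM with vehicle and 176, 134, 156 and 179 CPM with bilirubin. Each mouse was higher with bilirubin, but the treated culture of mouse 2 lay inside the vehicle range, so the groups overlapped. The mean rose from 129 ± 10.1 to 161 ± 20.8 CPM, with a log2 fold change of 0.32 (SE 0.04, edgeR adjusted p = 0.00243). The call was lost under 1 of the 12 settings, the model without mouse, where edgeR's adjusted p was 0.0614 (range over the settings 1.89e-08 to 0.0614).

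**Figure D2:**
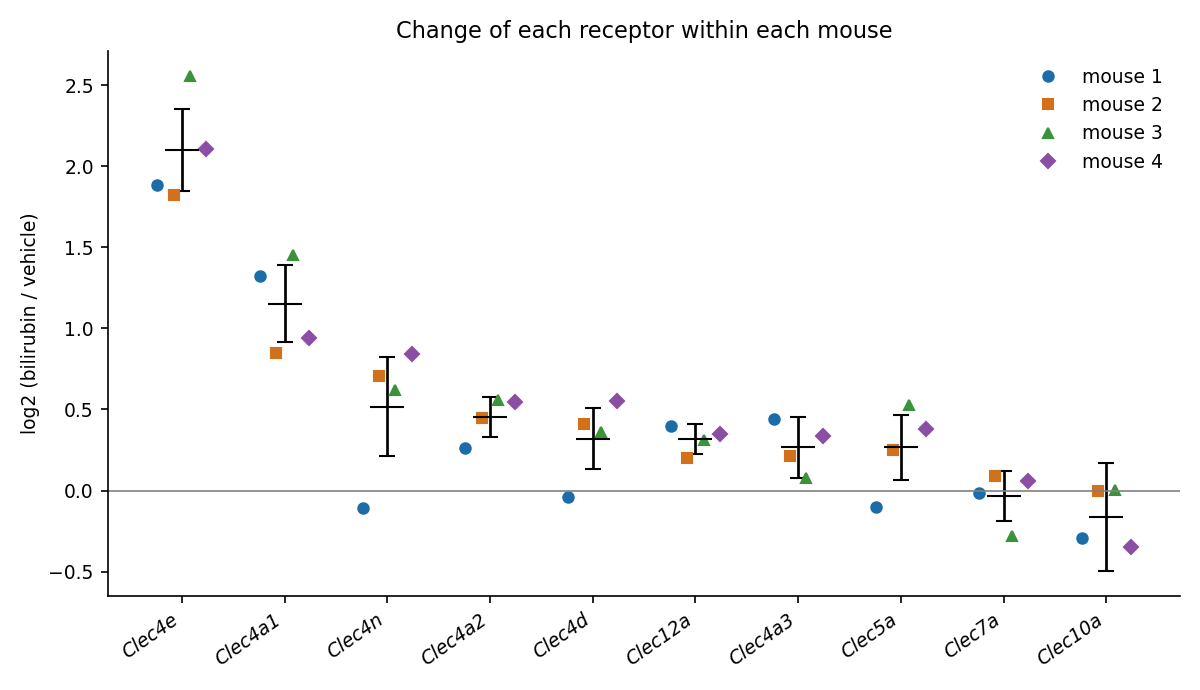
Log2 ratio of bilirubin to vehicle for each receptor, with a coloured point for each mouse, and the fitted change (black bar) with its 95% interval. The intervals of *Clec7a* and *Clec10a* include 0, and the points of mouse 1 for *Clec4n*, *Clec4d* and *Clec5a* lie below 0 while those of the other mice lie above it.

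The promoters of the 4 receptors that rose are shown because these genes rose with bilirubin and a reader may want the letters in front of their starts. Each run is the RefSeq window from 250 bases before to 50 bases after the annotated start, placed on GRCm39 by an exact match to the chromosome, and printed 5′ to 3′ on the strand of the gene. Capitals mark matches on either strand to the letters GAGGAA (PU.1), TTNCNNAA (C/EBP) and TGANTCA (AP-1), which can overlap each other. The 10-base consensus for NF-κB, which allows alternative letters at some positions, was likewise searched on either strand. The *Clec4e* window is chr6:123266781-123267080 (minus strand), that of *Clec4a1* chr6:122898557-122898856 (plus strand), that of *Clec4a2* chr6:123099399-123099698 (plus strand) and that of *Clec12a* chr6:129326957-129327256 (plus strand). The RefSeq starts of *Clec4a1*, *Clec4a2* and *Clec12a* lie inside the longer GENCODE gene spans.
Clec4e: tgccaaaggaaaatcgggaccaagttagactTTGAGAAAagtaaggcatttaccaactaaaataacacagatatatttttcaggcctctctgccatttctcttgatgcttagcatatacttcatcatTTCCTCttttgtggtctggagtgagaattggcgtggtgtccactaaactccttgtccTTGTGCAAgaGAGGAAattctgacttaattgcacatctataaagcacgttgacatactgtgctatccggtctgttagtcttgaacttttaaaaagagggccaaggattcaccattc
Clec4a1: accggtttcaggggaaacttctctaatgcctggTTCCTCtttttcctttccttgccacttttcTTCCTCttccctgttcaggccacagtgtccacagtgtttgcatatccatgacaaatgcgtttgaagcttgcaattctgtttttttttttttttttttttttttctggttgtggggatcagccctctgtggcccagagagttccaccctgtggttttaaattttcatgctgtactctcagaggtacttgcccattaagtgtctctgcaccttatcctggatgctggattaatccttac
Clec4a2: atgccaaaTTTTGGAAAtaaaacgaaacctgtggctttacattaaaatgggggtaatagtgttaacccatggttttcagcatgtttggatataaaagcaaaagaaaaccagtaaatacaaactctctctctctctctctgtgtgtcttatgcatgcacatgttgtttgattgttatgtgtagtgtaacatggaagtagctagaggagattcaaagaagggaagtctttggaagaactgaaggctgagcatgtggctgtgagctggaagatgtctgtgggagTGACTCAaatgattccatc
Clec12a: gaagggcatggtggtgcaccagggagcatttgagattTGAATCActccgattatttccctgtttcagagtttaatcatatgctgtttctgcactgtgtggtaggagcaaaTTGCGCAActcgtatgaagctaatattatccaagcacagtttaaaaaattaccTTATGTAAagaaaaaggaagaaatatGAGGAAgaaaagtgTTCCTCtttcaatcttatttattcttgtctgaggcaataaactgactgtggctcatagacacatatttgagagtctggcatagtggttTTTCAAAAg

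In these windows the PU.1 letters matched at 2 places each in *Clec4e*, *Clec4a1* and *Clec12a* and at none in *Clec4a2*, and 28.3% of the 32851 mouse promoters in the RefSeq table hold them. The C/EBP letters matched at 2 places in *Clec4e*, at 3 in *Clec12a*, at 2 overlapping places in *Clec4a2* and at none in *Clec4a1*, against 40.7% of all promoters with a match. The AP-1 letters were found once in *Clec4a2* and once in *Clec12a*, against 7.81% of promoters. The NF-κB consensus, present in 4.51% of all promoters, matched none of the 8 receptor promoters in the table, and those of *Clec4n* and *Clec10a* were not analysed here. A match or its absence describes the letters of these reference windows and not the binding of a factor. The BALB/cJ sequence of these windows was not compared with the reference.

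*Clec4d*, *Clec4n* and *Clec5a* encode activating receptors, and none of the 3 passed the threshold over all mice. *Clec4d* encodes MCL, which pairs with Mincle on the cell surface. In mice 1 to 4, *Clec4d* stood at 563, 628, 620 and 568 CPM in the vehicle cultures and at 546, 834, 796 and 833 CPM in the bilirubin cultures. The treated cultures of mice 2 to 4 were above every vehicle culture, whereas that of mouse 1 was below all of them. The log2 fold change was 0.32 (SE 0.08, edgeR adjusted p = 0.0563).

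*Clec4n* encodes Dectin-2, a receptor for fungal mannans that uses FcRγ. The vehicle cultures of mice 1 to 4 held 57.6, 77.2, 48.5 and 38.9 CPM of *Clec4n* and their bilirubin cultures 53.4, 126, 74.4 and 69.8 CPM. Mouse 2 was the highest of both groups, and the groups overlapped. The log2 fold change was 0.52 (SE 0.13, edgeR adjusted p = 0.0557). *Clec5a* encodes MDL-1, which signals through DAP12. *Clec5a* measured 89.8, 88.1, 82.8 and 88.02 CPM in vehicle and 83.8, 105, 120 and 114 CPM in bilirubin cultures of mice 1 to 4. Here too the treated culture of mouse 1 lay within the vehicle range and the other treated cultures were above it. The log2 fold change was 0.27 (SE 0.09, edgeR adjusted p = 0.123).

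Mouse 1 was thus lower with bilirubin for *Clec4d*, *Clec4n* and *Clec5a*, with log2 changes of -0.04, -0.11 and -0.10, and mice 2 to 4 were higher for each, a split seen after the values were known and present in 8.9% of all tested genes. Over all tested genes, mouse 1 went against the other mice in 18.0%, beside 10.8%, 8.3% and 8.1% for mice 2, 3 and 4. Without mouse 1, edgeR's adjusted p was 2.79e-05 for *Clec4d*, 2.82e-06 for *Clec4n* and 3.45e-04 for *Clec5a*, with log2 fold changes of 0.44, 0.72 and 0.38. The number of receptors called was then 7 instead of 4, while 1026 genes rose over the whole table instead of 616. Over the 12 settings the adjusted p of *Clec4d* ran from 8.03e-09 to 0.267, that of *Clec4n* from 2.44e-10 to 0.306 and that of *Clec5a* from 9.25e-05 to 0.454. The library of the treated culture of mouse 1 was the smallest of the 8, and the part of its depth in these values was not tested.

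The remaining receptors showed no call under any of the 12 settings. *Clec4a3*, another DCIR paralog, was higher with bilirubin in all 4 mice, as were 14.4% of all tested genes. Levels of *Clec4a3* in mice 1 to 4 were 8.71, 9.67, 10.96 and 9.38 CPM with vehicle and 11.9, 11.2, 11.5 and 11.9 CPM with bilirubin. The groups did not overlap, though the lowest treated and the highest vehicle culture were close, and the log2 fold change of 0.27 (SE 0.08, edgeR adjusted p = 0.0991) missed the threshold. *Clec7a* encodes Dectin-1, the receptor for fungal β-glucan with its own half-ITAM. In mice 1 to 4, *Clec7a* stood at 31.02, 29.8, 31.3 and 26.5 CPM in the vehicle cultures and at 30.6, 31.8, 25.8 and 27.7 CPM in the bilirubin cultures. The groups overlapped almost fully, and the log2 fold change was -0.04 (SE 0.07, edgeR adjusted p = 0.83), with a 95% interval from -0.19 to 0.12. *Clec10a* encodes MGL1, a receptor for galactose-type sugars that is used as a marker of alternatively activated macrophages. The vehicle cultures of mice 1 to 4 held 4.06, 3.02, 2.66 and 2.96 CPM of *Clec10a* and their bilirubin cultures 3.31, 3.02, 2.67 and 2.31 CPM. It was the least expressed receptor, with 93 to 193 counts per library, and its log2 fold change of -0.16 (SE 0.14, edgeR adjusted p = 0.602) had a 95% interval from -0.50 to 0.17.

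Levels between receptors were compared per transcript length, as TPM, Salmon's length-scaled share of each library. In vehicle cultures *Clec4d* stood far above the rest at 948 ± 44.2 TPM (SD, n = 4), higher than 99.0% of all tested genes. *Clec12a* followed at 116 ± 7.98, *Clec4a2* at 109 ± 6.43, *Clec5a* at 101 ± 4.45 and *Clec4n* at 84.2 ± 25.1 TPM, and each pair of neighbours among these 4 overlapped in range over mice, while *Clec4n* lay apart from the next. *Clec4e* at 29.2 ± 5.19 and *Clec7a* at 24.3 ± 1.55 TPM also overlapped each other. Below them came *Clec4a3* at 14.6 ± 1.21, *Clec4a1* at 12.1 ± 0.598 and *Clec10a* at 4.34 ± 0.649 TPM, each apart from its neighbours.

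With bilirubin *Clec4e* moved from rank 6 to rank 4 at 130 ± 40.6 TPM, and its range then overlapped those of *Clec12a* above it and *Clec4n* below it. *Clec4a1* moved from rank 9 to rank 7 at 26.4 ± 6.40 TPM and overlapped *Clec7a*, and *Clec4d* remained first at 1145 ± 176 TPM. The 10 receptors together came to 1387 to 1499 TPM in vehicle and 1554 to 1994 TPM in bilirubin cultures, and without *Clec4d* to 477 to 514 and 672 to 781 TPM. *Clec4d* made up 65.7% ± 1.34 of the summed receptor TPM in vehicle and 61.3% ± 3.35 in bilirubin cultures. The share of *Clec4e* was 2.03% ± 0.417 and 6.96% ± 1.92.

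**Figure D3:**
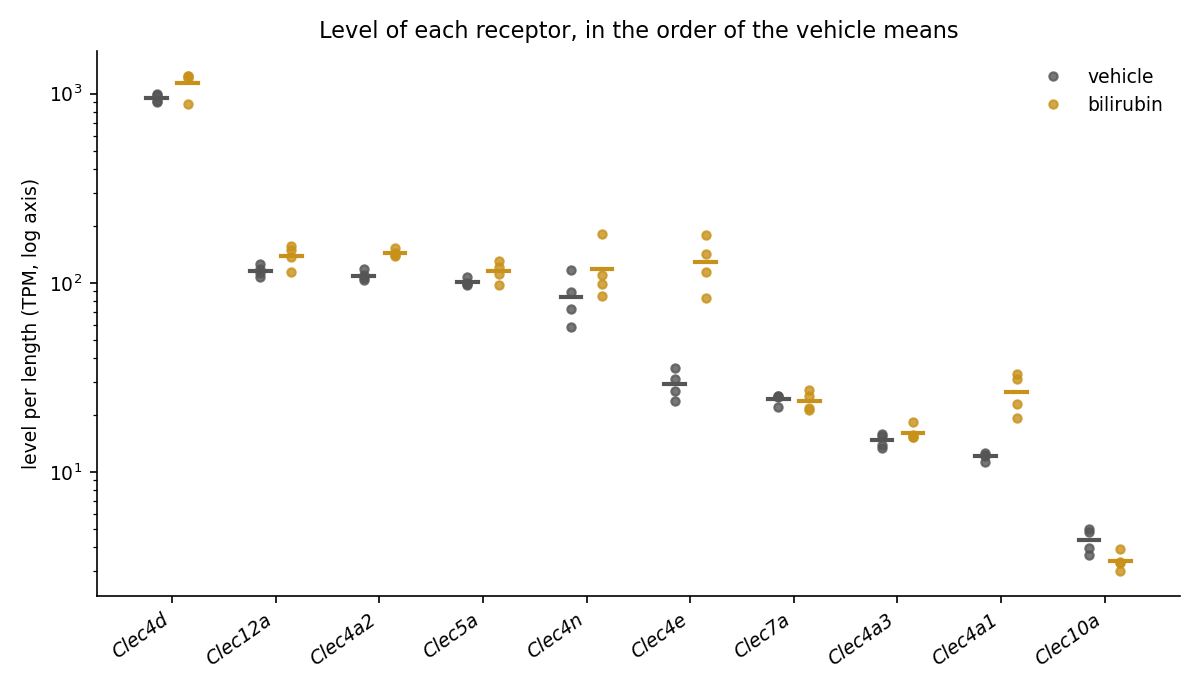
Level per transcript length (TPM, log axis) of each receptor in the 4 vehicle (grey) and 4 bilirubin (ochre) cultures, ordered by vehicle mean, with bars for group means. *Clec4d* lies far above the other receptors in both groups, and *Clec4e* is the one with the widest gap between its groups.

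By position, the 6 *Clec4* receptors span 370.7 kb of chromosome 6 (GRCm39), in the order *Clec4a1*, *Clec4a3*, *Clec4a2*, *Clec4n*, *Clec4d* and *Clec4e*. *Clec4a1* (ENSMUSG00000049037) lies at chr6:122896122-122911578 (plus strand), *Clec4a2* (ENSMUSG00000030148) at chr6:123083387-123120958 (plus strand) and *Clec4e* (ENSMUSG00000030142) at chr6:123258748-123266829 (minus strand). *Clec4d* (ENSMUSG00000030144) at chr6:123239070-123252230 (plus strand) runs toward *Clec4e* on the opposite strand, with 6.518 kb between their ends. *Clec12a* (ENSMUSG00000053063) at chr6:129319654-129342266 (plus strand) lies 6052.82 kb beyond *Clec4e* on the same chromosome, 96.288 kb from *Clec7a* (ENSMUSG00000079293). *Clec5a* (ENSMUSG00000029915) is also on chromosome 6, outside both clusters, and *Clec10a* (ENSMUSG00000000318) is on chromosome 11.

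Within this span the fitted log2 fold changes ran from 0.27 for *Clec4a3* to 2.10 for *Clec4e*. The log2 fold changes of *Clec4e* and of its convergent neighbour *Clec4d* were 2.10 and 0.32. Within 500 kb of the cluster, 10 other genes were tested, all on the *Clec4a1* side, and 0 of them rose past the threshold. Over all tested genes 4.49% rose, so few or none are to be looked for among 10. The gene model *Gm8459*, with means of 0.228 CPM in vehicle and 0.601 CPM in bilirubin cultures, was higher in all 4 mice. Its log2 fold change of 1.39 missed the threshold (edgeR adjusted p = 0.0647). The glucose transporter gene *Slc2a3* fell by 0.26 on the log2 scale (SE 0.06, edgeR adjusted p = 0.0474). *C3ar1*, which encodes the receptor for the complement fragment C3a, had a log2 fold change of -0.10, and *Necap1*, next to *Clec4a1*, one of -0.08, and neither passed.

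**Figure D4:**
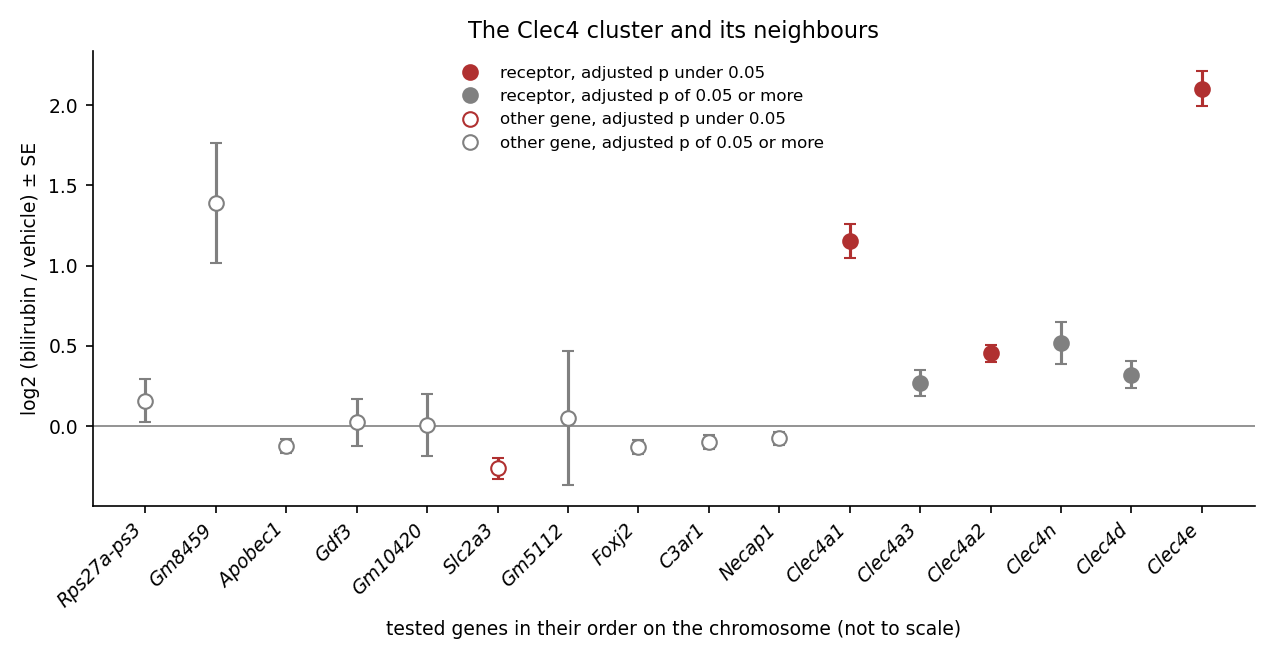
Fitted log2 fold change (points) with its SE (bars) for the tested genes within 500 kb of the *Clec4* cluster, in chromosomal order but not to scale. Filled points are receptors and open points other genes. Red marks an adjusted p under 0.05, reached by *Clec4a1*, *Clec4a2* and *Clec4e* upward and by *Slc2a3* downward.

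Some receptor reads cannot be assigned to 1 gene. Of the 31-base words in its transcripts, *Clec10a* shares 14.98% with other genes, mostly its neighbour *Mgl2* (13.7%). *Clec4a2* shares 10.5%, and the single gene with the largest part is *Clec4a4* (4.82%). *Clec4a1* shares 4.67%, and each of the other receptors shares under 2%. *Mgl2* and *Clec4a4* had at most 12 and 6 counts per library. *Clec4a2* also overlaps the gene model *Gm44132* on its own strand. *Clec4d*, *Clec5a* and *Clec4a2* overlap antisense models, and whether strand was used in counting is not given in the sources used here.

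Dectin-1 is made in a form with and a form without a stalk between the membrane and the sugar-binding domain, and *Clec4n* also has transcripts with and without its exon 3. For *Clec7a*, the 6-exon transcript, which holds the stalk, took 72.1% to 97.4% of the gene's estimated counts in vehicle and 89.96% to 95.5% in bilirubin cultures, and the 5-exon transcript 2.60% to 4.52% and 3.95% to 5.53%. The annotation labels the 6-exon transcript as protein-coding with loss of function and the 5-exon transcript as protein-coding. These labels describe the GRCm39 reference sequence. Whether the loss of function holds in BALB/cJ cells was not tested. The 72.1% was the vehicle culture of mouse 2, where most of the remainder was assigned to a transcript outside the annotation used here. For *Clec4n*, the 6-exon transcript took 60.3% to 70.4% in vehicle and 61.6% to 71.4% in bilirubin cultures. The exon that tells the forms apart is shown for both genes, exon 3 of 6 in each, as 135 bases at chr6:129445832-129445966 (minus strand) for *Clec7a* and 102 bases at chr6:123209052-123209153 (plus strand) for *Clec4n*, read on the strand of the gene from the GRCm39 reference.
Clec7a exon 3: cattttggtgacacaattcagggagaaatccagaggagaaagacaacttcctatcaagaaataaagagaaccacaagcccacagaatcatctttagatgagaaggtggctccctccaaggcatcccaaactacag
Clec4n exon 3: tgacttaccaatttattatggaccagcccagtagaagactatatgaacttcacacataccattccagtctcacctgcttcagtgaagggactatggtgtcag

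Of the receptors, 6 had at least 2 transcripts that each held 10% of the counts, and the share of the most abundant one was compared within mice by a two-sided exact sign-flip permutation test, whose smallest possible p with 4 mice is 1 in 8. For *Clec4a2* the share was 53.2% ± 3.73 (SD, n = 4) in vehicle and 55.8% ± 2.38 in bilirubin cultures (exact p = 0.5). For *Clec4d* it was 70.2% ± 1.26 and 71.5% ± 2.28 (exact p = 0.25), the rest being mostly a transcript annotated as subject to nonsense-mediated decay at 25.7% to 30.8%. For *Clec12a* it was 84.1% ± 1.16 and 84.5% ± 0.175 (exact p = 0.5). *Clec4n* had 66.5% ± 4.52 and 65.6% ± 4.72 (exact p = 1.0), and *Clec5a* 69.5% ± 3.33 and 68.8% ± 1.14 (exact p = 0.625). This main *Clec5a* transcript is annotated without a defined coding sequence. For *Clec10a*, with its few counts, the shares were 64.3% ± 16.9 and 46.0% ± 12.0 (exact p = 0.25). This test cannot reach 0.05 with 4 mice. The *Clec10a* difference, bilirubin minus vehicle, was -18.3 percentage points over all mice, -6.68 without mouse 2 and -9.57 on shares of TPM.

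Beyond the receptors, 135 genes of 6 lists around their pathway were looked up, of which 97 were tested, 28 rose and 10 fell, or 39.18% called beside 7.53% of all tested genes. These lists were chosen with earlier results of these data known, so the gap between these shares is not a test of the pathway. Among 48 other C-type lectin genes, 16 were tested, 6 rose and 3 fell, with a median log2 fold change of 0.04. *Cd302*, an endocytic lectin, had the smallest adjusted p of those that rose, from 40.2 ± 1.97 to 73.04 ± 6.39 CPM (log2 fold change 0.86, edgeR adjusted p = 1.65e-04). *Clec2d*, a ligand of the natural killer cell receptor NKR-P1, rose by 1.27 and *Cd207*, which encodes langerin, by 0.71 on the log2 scale. The B cell coreceptor gene *Cd72* (log2 fold change -0.45, edgeR adjusted p = 0.00999), the surface protein gene *Cd93* (-0.36, edgeR adjusted p = 0.00635) and *Clec2i* (-0.44, edgeR adjusted p = 0.0268) fell. The falls of *Cd72* and *Clec2i* no longer passed without mouse 2, 3 or 4, nor that of *Cd93* without mouse 3 or 4 (edgeR adjusted p up to 0.132, 0.1253 and 0.0726 over the settings). The 32 that were not tested had at most 16 counts in any library, among them the paralogs *Clec4b1* and *Clec4b2* of the *Clec4* cluster.

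Of the 26 adaptors and kinases that couple the receptors to Syk, 5 rose and 3 fell, with a median log2 fold change of -0.04. *Fgr* measured 5.93, 4.48, 6.63 and 6.11 CPM in vehicle and 20.3, 12.8, 22.4 and 21.6 CPM in bilirubin cultures of mice 1 to 4. The groups were far apart, and the mean of this Src-family kinase rose by 1.72 on the log2 scale (SE 0.07, edgeR adjusted p = 1.70e-05). Levels of *Src* in mice 1 to 4 were 8.25, 9.03, 10.5 and 8.14 CPM with vehicle and 19.7, 20.5, 28.2 and 26.1 CPM with bilirubin. Treated cultures were again all above vehicle cultures, with a log2 fold change of 1.39, edgeR adjusted p = 7.58e-05.

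In mice 1 to 4, *Syk* stood at 359, 375, 348 and 330 CPM in the vehicle cultures and at 398, 439, 414 and 390 CPM in the bilirubin cultures. The log2 fold change of *Syk* was 0.22, edgeR adjusted p = 0.00536, without overlap between the groups. *Fcer1g*, the adaptor of Mincle, MCL and Dectin-2, fell. The vehicle cultures of mice 1 to 4 held 411, 387, 395 and 412 CPM of *Fcer1g* and their bilirubin cultures 376, 353, 352 and 376 CPM. All treated cultures were below all vehicle cultures, and *Fcer1g* had a log2 fold change of -0.14, edgeR adjusted p = 0.0274. *Tyrobp*, the adaptor of MDL-1, had 503 ± 24.2 and 466 ± 24.2 CPM and did not pass (edgeR adjusted p = 0.0851).

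*Rasgrp3*, an exchange factor for Ras and Rap proteins, showed the steepest fall of this list, from 27.4 ± 2.31 to 13.04 ± 1.76 CPM (log2 fold change -1.07, edgeR adjusted p = 4.02e-04). The kinase gene *Tec* fell with a log2 fold change of -0.16, edgeR adjusted p = 0.0467. *Prkcd*, which also rose and encodes the protein kinase C that phosphorylates CARD9, falls outside the naming rule and was added after its value was seen (log2 fold change 0.15, edgeR adjusted p = 0.0418, up to 0.221 over the 12 settings). The call of *Syk* was lost without mouse 3 or 4 (edgeR adjusted p up to 0.0666 over the 12 settings), and those of *Fcer1g* (up to 0.173) and *Tec* (up to 0.243) without mouse 2, 3 or 4.

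Of 21 genes of the CARD9 complex and of NF-κB activation, 4 rose and 1 fell, with a median log2 fold change of 0.03. Within the complex, *Card9* had 37.5 ± 1.39 and 37.8 ± 3.17 CPM (log2 fold change 0.01, edgeR adjusted p = 0.959) and *Bcl10* 42.4 ± 0.836 and 45.2 ± 4.27 CPM (0.09, edgeR adjusted p = 0.411), neither past the threshold. *Malt1*, the paracaspase of the complex, rose from 42.4 ± 3.86 to 55.4 ± 4.95 CPM (log2 fold change 0.39, edgeR adjusted p = 0.00246), but with an offset for transcript length its log2 fold change was 0.19 and the call was lost (edgeR adjusted p = 0.161, range over the settings 1.64e-08 to 0.161). The ubiquitin ligase gene *Traf6* fell (log2 fold change -0.29, edgeR adjusted p = 0.00478). *Relb* and *Nfkb2*, which form the alternative NF-κB dimer, had log2 fold changes of 1.00 and 0.63, and the inhibitor gene *Nfkbia* one of 0.77, and all 3 rose under each of the 12 settings.

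Of 15 inhibitors of the pathway, 3 rose and 2 fell, with a median log2 fold change of 0.05. *Ptpn6*, which encodes SHP-1, the partner of ITIM receptors such as DCIR and MICL, rose by 0.21 on the log2 scale (edgeR adjusted p = 0.0173), with overlapping groups. The phosphatase gene *Ptpn22* rose by 0.58 and *Tnfaip3*, which encodes the NF-κB inhibitor A20, by 0.38. The ubiquitin ligase gene *Cblb* fell by 0.17 (edgeR adjusted p = 0.0499) and *Rubcn*, which encodes Rubicon, fell by 0.22. Of these 5 genes, *Ptpn22* passed under all 12 settings, and each of the others missed the threshold under 4 or 5 of them, *Ptpn6* without mouse 3 or 4 and *Cblb*, *Rubcn* and *Tnfaip3* without mouse 2, 3 or 4 among these.

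Of 5 genes reported to encode self ligands, *Anxa1*, *Anxa5* and *Vim*, the genes of 2 annexins and of vimentin that Dectin-1 has been reported to bind, rose (log2 fold changes 0.30, 0.21 and 0.24), and 0 fell. The calls of *Anxa5* and *Vim* were lost without mouse 2, 3 or 4 and that of *Anxa1* without mouse 3 (edgeR adjusted p up to 0.146, 0.097 and 0.0709 over the settings). *Lgals9* and *Sap130* were not called. The list took *Sap130* by its symbol, while the spliceosome protein of that name is encoded by *Sf3b3*, added after the values were seen, which had 136 ± 4.00 and 136 ± 7.06 CPM (log2 fold change -0.00, edgeR adjusted p = 0.984).

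Of 20 genes known to be induced through Dectin-1 or Mincle, 14 were tested, 7 rose and 1 fell, with a median log2 fold change of 0.55. The neutrophil-attracting chemokine genes *Cxcl1* and *Cxcl2* rose from 0.596 ± 0.151 to 6.92 ± 2.92 CPM (log2 fold change 3.49, edgeR adjusted p = 4.33e-05) and from 2.67 ± 0.780 to 14.6 ± 5.70 CPM (2.40, edgeR adjusted p = 5.88e-04). *Tnf* rose from 37.2 ± 3.49 to 64.6 ± 10.9 CPM (0.79, edgeR adjusted p = 5.84e-04). The chemokine gene *Ccl4* fell from 20.1 ± 2.26 to 13.02 ± 0.828 CPM (-0.62, edgeR adjusted p = 0.00148). *Il6*, *Il12b*, *Il23a*, *Il2*, *Csf2* and *Csf3* had too few counts to be tested. Many stimuli other than these receptors induce the genes of this list, and ligand binding was not measured.

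**Figure D5:**
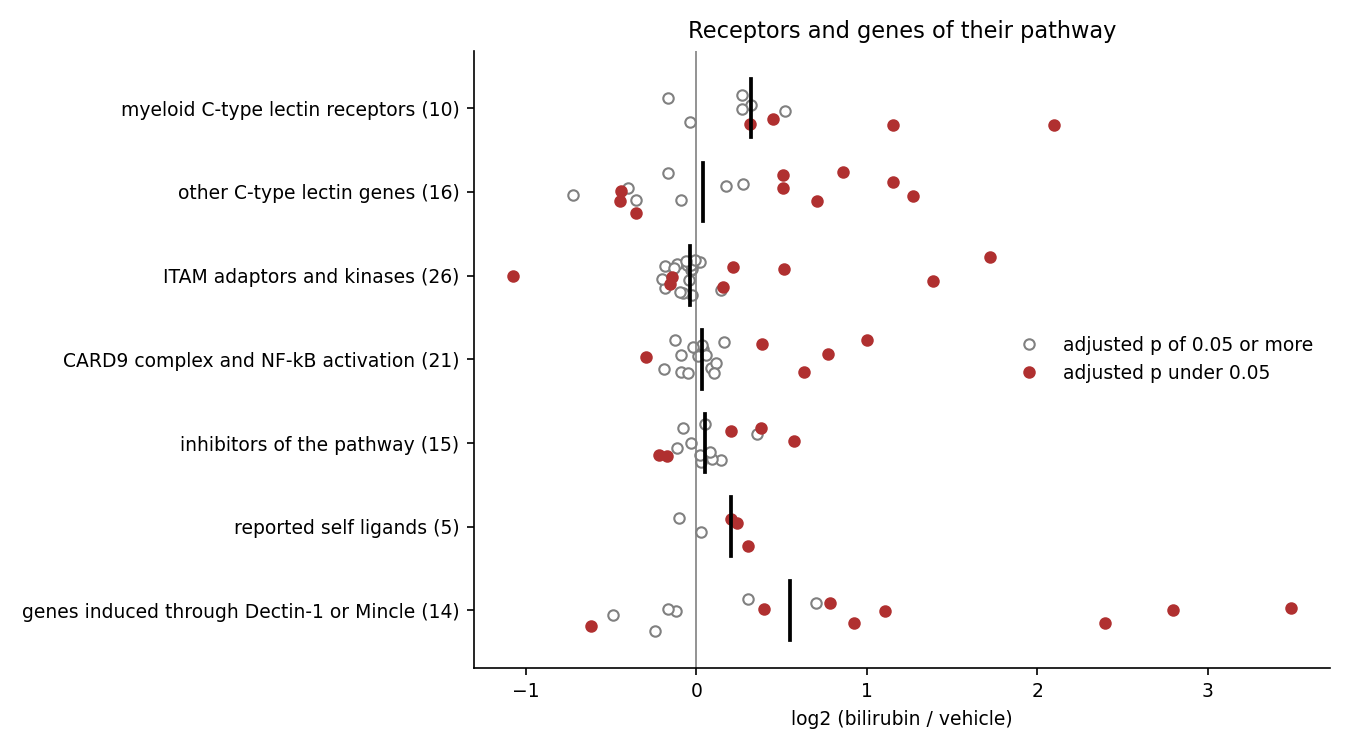
Fitted log2 fold change of each tested gene (points, red for an adjusted p under 0.05) in the receptor group and the 6 pathway lists, with the list median as a black bar and the number of tested genes in parentheses. The medians of the receptors (0.32) and of the induced genes (0.55) are the highest, and the other medians lie between -0.04 and 0.21.

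The genes whose changes by mouse were most like those of each receptor that rose were found by the root mean square difference of the 4 within-mouse log2 changes, over 10896 genes whose log2 CPM averaged 1 or more. For *Clec4e* they were *Ass1* (difference 0.18), *Slc6a12* (0.26) and *Cdc42ep2* (0.32), with fitted log2 fold changes of 2.25, 2.11 and 2.35. For *Clec4a1* they were *Tlr2* (0.19), *Gas7* (0.22) and *Abca1* (0.25). For *Clec4a2* they were *Sdc4* (0.03), *Prdx5* (0.03) and *Slc16a10* (0.05), and for *Clec12a* *Smurf1* (0.01), *Susd6* (0.03) and *Mapkapk2* (0.04). The differences were larger for *Clec4e* than for *Clec12a*, by a measure that is not scaled to the size of the change.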

How the data were processed

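Polyadenylated RNA of 8 BMDM cultures, a vehicle and a bilirubin culture from each of 4 mice, was sequenced. The authors trimmed reads with Trim Galore 0.6.7 and cutadapt 3.4, aligned them with STAR 2.7.9a to GRCm39 and quantified transcripts with Salmon 1.10.1 (versions also in the submitters' processing notes). Per gene, the authors deposited the estimated counts from Salmon (expected counts), unscaled for depth or length, and per library the estimated counts and TPM of 142434 transcripts. The authors' TPM, scaled for transcript length and library size, were summed per gene.

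Counts, rounded to whole numbers, went into edgeR 4.0.16 under R 4.3.3 (TMM, filterByExpr with at least 10 counts and 15 in total, mouse and treatment in the model, quasi-likelihood test). The Benjamini-Hochberg adjustment ran over 13722 genes, with a threshold of 0.05. The SE was derived from the F statistic. The mouse was in the model because both cultures came from the same animal. The 2 cultures of a mouse deviated from their groups with correlations of 0.108, 0.134, 0.108 and -0.005 in mice 1 to 4, against at most 0.075 between mice. The 12 alternatives were no mouse term, DESeq2 1.42.0, limma 3.58.1 (voom), DESeq2's size factors, library size alone, no filter, CPM above 1 in 4 libraries, a transcript length offset, and leaving out each mouse. The procedure was tested on simulated data.

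Named genes were all 10 receptors, 7 core pathway genes (*Fcer1g*, *Tyrobp*, *Syk*, *Card9*, *Bcl10*, *Malt1*, *Ptpn6*), in each list the 3 genes with the smallest adjusted p in each direction among those called, and the 3 genes most like each called receptor. The members and lists were chosen with earlier results of these data known. Coordinates came from GENCODE M39 on GRCm39 and promoter sequences from the RefSeq table, which holds 8 of the 10 receptors. Marker lists of B, T and NK cells, granulocytes other than neutrophils, erythroid cells and megakaryocytes summed to at most 1.24 CPM in any library, and stromal or endothelial markers to 9.99 to 18.3 CPM, with 0 of them called. A named gene of the pathway lists is not reported here.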

Additional observations from a re-analysis of the deposited data

Results flagged for a closer look

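Among 63 groups of 4 values examined, 2 held a value apart from the other 3 by Dixon's test, at its 95% critical ratio for 4 values, and chance alone gives about 1 such group in 20. With bilirubin, the *Clec4d* level of mouse 1 was 546.2 CPM, while the other mice lay between 795.8 and 833.8 CPM (ratio 0.868). The within-mouse log2 change of *Fcer1g* was -0.1663 in mouse 3 and between -0.1332 and -0.1309 in the others (ratio 0.936), a gap of the same sign and of small size.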

How the results depend on the processing

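*Clec4e*, *Clec4a1* and *Clec4a2* were called under all 12 alternatives and *Clec12a* under 11, and 0 receptors were lower under any. Of 120 receptor values recomputed, 107 kept their direction and side of the threshold, 10 newly passed, 1 no longer passed and 2 changed sign, all of these last for *Clec7a* (0.0071 with the length offset, and between -0.0791 and 0.0435 when leaving out 1 mouse, positive without mouse 3). *Card9* also changed sign (-0.0175 on library size alone, -0.0409 with the offset, and between -0.0523 and 0.0469 when leaving out 1 mouse, negative without mice 1 and 3). The cause was not tested.

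Without the mouse as replicate block, 3 receptors were higher instead of 4, 458 genes rose and 228 fell instead of 616 and 417, and 23 pathway genes rose and 6 fell instead of 28 and 10. The calls of *Cblb*, *Clec2i*, *Fcer1g*, *Ptpn6*, *Rubcn*, *Tec* and *Tnfaip3* were also lost without this pairing.

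With no filter on low counts, 7 receptors rose, 774 genes fell in all and 16 pathway genes fell. The offset for transcript length left 372 genes higher and 207 lower, and 4 pathway genes lower. It lost the calls of 9 named genes, *Cblb*, *Cd72*, *Clec2i*, *Fcer1g*, *Malt1*, *Ptpn6*, *Rubcn*, *Tec* and *Tnfaip3*. Scaling by library size alone gave 527 higher and 556 lower (48.7% higher, 59.6% with TMM). Leaving out each mouse gave 265 to 1026 genes higher and 112 to 884 lower, 4 to 7 receptors higher, and 17 to 30 pathway genes higher and 3 to 19 lower, with the highest counts without mouse 1. Without mouse 3, calls of 13 named genes were lost, among them *Anxa1*, *Vim*, *Cd72*, *Cd93* and *Syk*, without mouse 4 of 12 and without mouse 2 of 9. The difference in share of the main transcript ran from -1.94 to 1.77 percentage points for *Clec4n* and from -1.74 to 0.57 for *Clec5a*, which was 0.88 on shares of TPM. Low depth limits *Clec10a* (93 to 193 counts), and intervals here cover these 4 mice of 1 strain.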
